A study of Homo sapiens with 6 samples.

Results

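The genes described here are 10 genes whose proteins bind microtubules or set how fast microtubules grow, shrink and are made: STMN1, MAP4, MAP1B, MAP7, MAPRE1, CLIP1, CLASP1, CLASP2, CKAP5 and TTC5. The rule that picks them uses names alone, but it was written with earlier results of these data known. Each had 1 entry among the 16390 genes listed for every library, and all 10 were among the 13055 genes with enough counts for a test. RNA was sequenced from SW780, an established human bladder cancer cell line that the study takes as a luminal type. The RC48 group had 3 libraries of cells exposed to 25 µg/ml of RC48, and the Control group had 3 libraries of SW780 cells without it. RC48 (disitamab vedotin) couples an antibody against ERBB2 to monomethyl auristatin E, a compound that blocks the assembly of microtubules. The study's methods call the exposed cells stable and, for this experiment, name no exposure time. All values come from a single cell line, and the labels do not say that the 3 libraries of a group came from separate cultures, so the p-values measure only the spread between these libraries. In such bulk RNA, fewer cells that express a gene and less RNA per cell cannot be told apart.

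Microtubules are hollow polymers of alpha and beta tubulin that keep switching between growth and shrinkage, mostly at their plus ends. Stathmin (STMN1) holds free tubulin dimers back from the polymer, the lattice-binding proteins MAP4, MAP1B and MAP7 bind along the polymer, and MAPRE1, CLIP1, CLASP1, CLASP2 and CKAP5 act at growing plus ends. TTC5 works on the supply side: it recognises newly made alpha and beta tubulin on the ribosome and starts the decay of their mRNAs when free tubulin is in excess. Several of these proteins, but not all, work in the mitotic spindle, and auristatins act on the same tubulin pool.

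The libraries differed in more than their group. Estimated counts summed to between 16453233 and 17988030 per library. Chi-square per degree of freedom, computed on 11138 genes and close to 1 for libraries that differ by sampling alone, was 1.47 to 12.4 for pairs of Control libraries and 23.8 to 145 for pairs of RC48 libraries. In RC48 replicate 1, the change from the Control mean followed the GC content of the transcripts (Spearman's rho 0.763 across 13000 genes), and it did so less in RC48 replicate 3 (0.594) and not visibly in RC48 replicate 2 (-0.021). The 10 genes lie on the AT-rich side, at 41.8% to 50.4% GC with a median of 45.2% against 49.3% for all genes, and 9 of the 10 were below the median of all genes. For this reason the log2 fold change of each of the 10 genes is also given after the trend with GC content was removed from every library. Markers of the labelled cell type were abundant: 11 epithelial and luminal genes summed, in CPM (counts scaled to library size), to 7204 to 8136 in Control and 7545 to 8684 in RC48, most of it KRT8, KRT18 and KRT19, whose groups overlapped. Of the 11, edgeR called 1, where it called 2.21% of all genes (0.230% lower). The luminal keratin KRT20 was lower, at -1.55 (SE 0.31, edgeR adjusted p = 0.0489) and only 1.98 CPM in Control. In 3 of the 11 (KRT20, EPCAM and FOXA1) all RC48 libraries lay below Control, and in 0 above, as in 14.1% and 17.4% of all genes. EPCAM had -0.49 (SE 0.17, edgeR adjusted p = 0.199) and FOXA1 had -0.44 (SE 0.15, edgeR adjusted p = 0.194). The log2 fold changes of the 11 were positive in 6 and negative in 5, with a median of 0.0032. With the GC trend removed 2 were positive and 9 negative, with a median of -0.16 beside -0.024 for all genes. The 7 leukocyte genes with an entry summed to 17.9 to 18.4 in Control and 22.4 to 42.0 in RC48. The 5 tested all had positive log2 fold changes, with a median of 1.42 (1.14 with the GC trend removed). In 4 of the 5 all RC48 libraries lay above Control and in 0 below, as in 17.4% and 14.1% of all genes. At an unadjusted p of 0.05 in edgeR 3 were higher, where 11.9% of all genes were. Of the 5, edgeR called 1, ITGAM, at 5.12 (SE 0.64, edgeR adjusted p = 0.00740), where 1.98% of all genes were called higher. PTPRC, the defining marker, was at 0 in all 3 Control libraries and at most 0.061 CPM in RC48. The 7 fibroblast and endothelial genes summed to 469.8 to 503 in Control and 467 to 578 in RC48. Single genes went both ways: the 5 tested had log2 fold changes from -0.86 to 0.74. In 2 of the 5 all RC48 libraries lay above Control and in 2 below, as in 17.4% and 14.1% of all genes. Of these 5 edgeR called 0, and DESeq2 called 2 higher and 1 lower (all genes 4.11% and 1.59%). With the GC trend removed edgeR called 2, both lower (all genes 3.78%). The part of these markers in the results was not tested.

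How abundant each gene was can be compared between genes only per transcript length, as TPM. In the Control cells STMN1 was at 492 ± 12.7 TPM (SD, n = 3) and MAPRE1 at 223 ± 14.1 TPM, and both stood apart from all others. CKAP5 came next with 66.0 ± 11.4 TPM. MAP7, CLIP1 and MAP4 had means of 37.0, 36.8 and 35.6 TPM with overlapping libraries, so their order is within the spread. CLASP1 and CLASP2 also overlapped, at 17.4 and 15.7 TPM, though CLASP1 was the higher of the pair in each library. TTC5 had 10.1 ± 1.43 TPM, below all of these, and MAP1B was barely present at 0.16 ± 0.03 TPM. In RC48 the sequence began again with STMN1 at 319 ± 143 TPM and MAPRE1 at 174 ± 53.4 TPM. Their ranges overlapped, but STMN1 was above MAPRE1 in each RC48 library. Of the 9 pairs of neighbours in the RC48 order, 6 overlapped in range, against 3 in Control. Compared within each library, 7 of the 9 pairs kept the order of the means in every library of the group, in RC48 and in Control alike, and in RC48 the exceptions were MAP4 with CLIP1 and CLASP2 with TTC5. The TPM of RC48 replicate 2 was computed from its counts, and with the other 2 RC48 libraries alone 3 pairs overlapped.

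**Figure D1:**
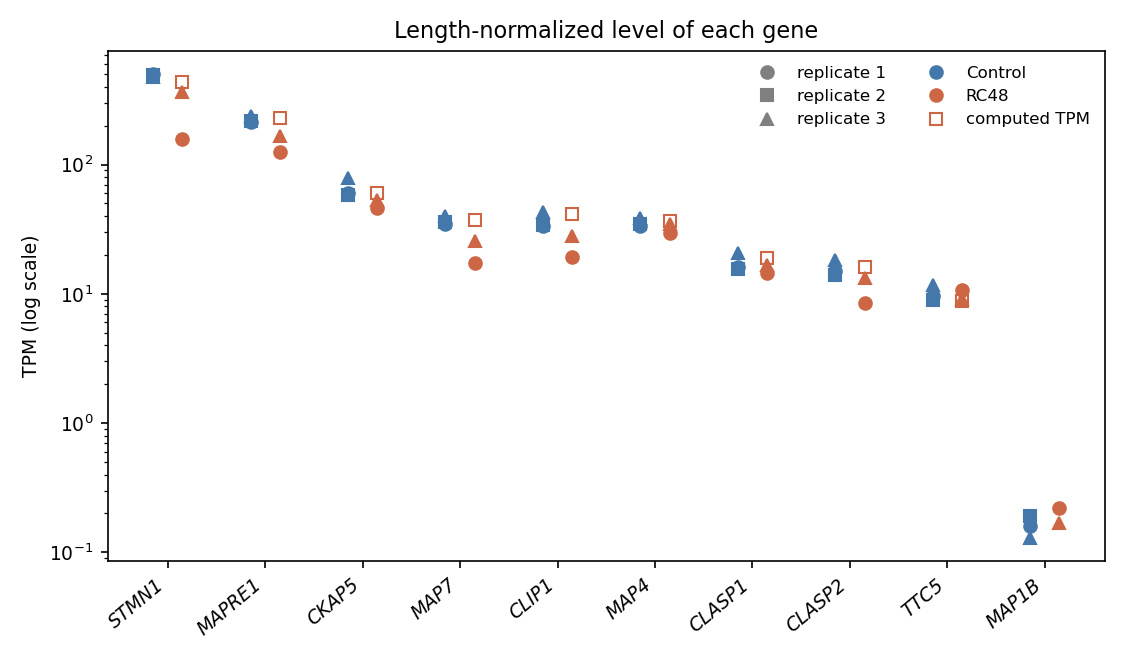
TPM (log scale) of each of the 10 genes in the 3 Control libraries (blue) and the 3 RC48 libraries (orange), with open squares for RC48 replicate 2, whose TPM was computed from its counts and which has none for MAP1B. Control values fall from about 492 TPM for STMN1 to 0.16 TPM for MAP1B, and RC48 replicate 1 has the lowest value of the 6 libraries for 8 of the 10 genes.

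None of the 10 genes passed the test between RC48 and Control. With edgeR's quasi-likelihood test and Benjamini-Hochberg adjustment over all 13055 genes, 0 of 10 were called at an adjusted p of 0.05, against 2.21% of all genes (0.230% lower after RC48). Of all genes 258 were called higher and 30 lower, a split that was 577 to 493 with the GC trend removed. At an unadjusted p of 0.05 the count was also 0 of 10, where 19.1% of all genes passed, and DESeq2 called 0 of 10, where it called 5.70% of all genes. The fitted log2 fold change was negative for 7 genes and positive for 3, with a median of -0.26 beside 0.016 for all genes tested. In STMN1 and CKAP5, 2 of 10 genes, all 3 RC48 libraries were below all 3 Control libraries, as they were in 14.1% of all genes, and in 0 of 10 were they all above, against 17.4% of all genes. The medians differed between the RC48 libraries: relative to the Control mean, the median log2 ratio of the 10 genes was -0.50 in RC48 replicate 1, 0.016 in replicate 2 and -0.21 in replicate 3. Below the Control mean were 8, 4 and 7 of the 10 genes in these libraries.

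**Figure D2:**
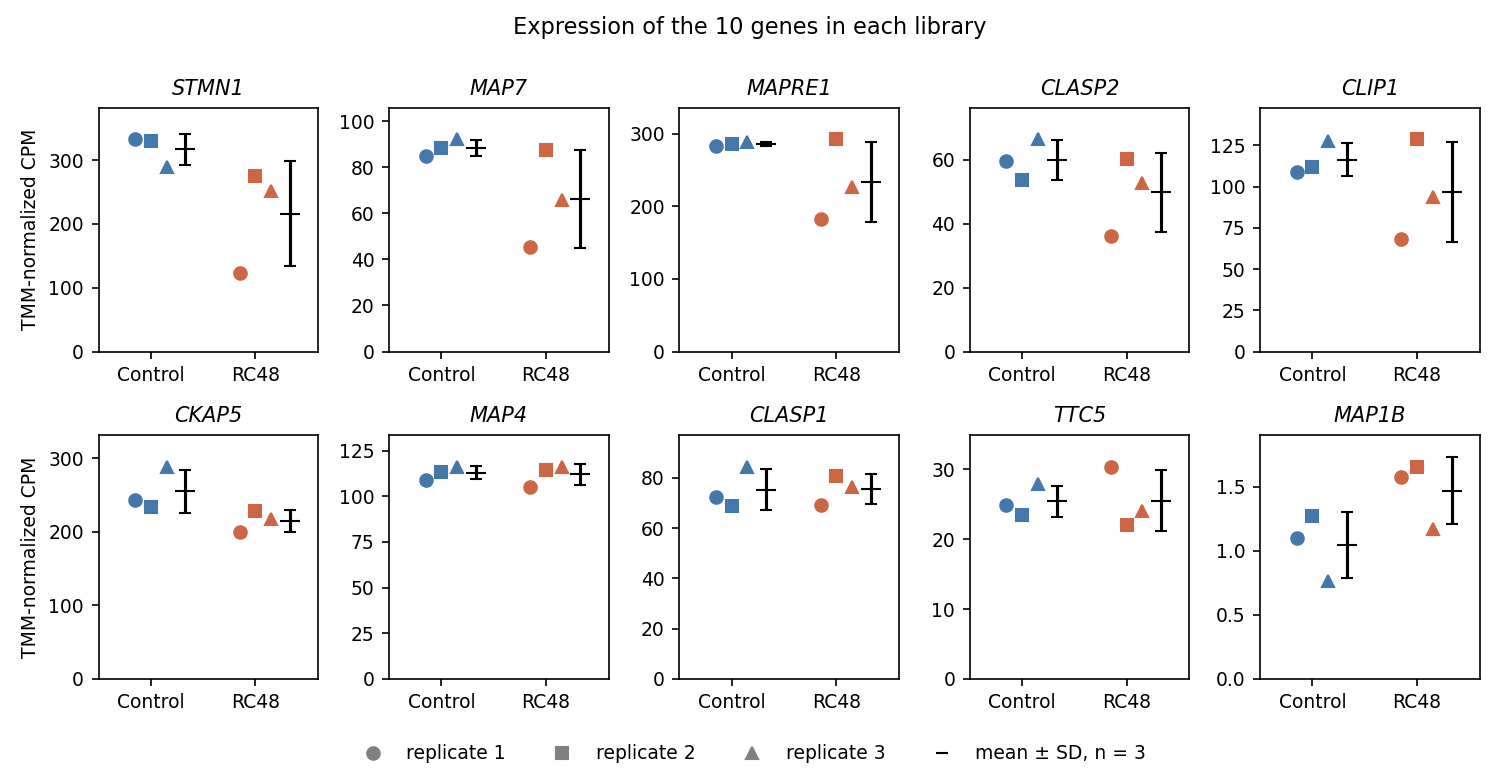
TMM-normalized CPM of each of the 10 genes, one point per library (circle, square and triangle for replicates 1, 2 and 3), with the mean and SD of each group (n = 3) in black and every axis starting at 0. In STMN1 and CKAP5 the 3 RC48 points sit below the 3 Control points, and in MAP7, MAPRE1, CLIP1 and CLASP2 RC48 replicate 2 sits within or above the Control points while replicate 1 is lowest.

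STMN1 encodes stathmin, the tubulin-sequestering protein, and lies at chr1:25884181-25906991 on the minus strand (hg38, GENCODE release 29). It was at 333, 330.1 and 289 CPM in Control replicates 1, 2 and 3 and at 122, 275 and 252 CPM in RC48 replicates 1, 2 and 3. All 3 RC48 libraries were below every Control library, and RC48 replicate 1, at 38.6% of the Control mean, was far below replicates 2 and 3, at 86.7% and 79.3%. The means were 317 ± 24.7 CPM in Control and 216 ± 82.2 CPM in RC48 (SD, n = 3). The log2 fold change was -0.55 (SE 0.28, 95% confidence interval -1.19 to 0.088, edgeR adjusted p = 0.291), the most negative of the 10 genes. The exact permutation test, two-sided on log2 CPM, gave p = 0.1, the smallest value that 3 against 3 libraries allow. With the GC trend removed, STMN1 was still lower in all 3 RC48 libraries, with a log2 fold change of -0.53 (SE 0.22, edgeR adjusted p = 0.165). It passed the threshold under that correction when RC48 replicate 1 was left out, with a log2 fold change of -0.28 (adjusted p = 0.0461), where 13.6% of all genes passed. Set against its partner, STMN1 per unit of tubulin mRNA (15 alpha and beta tubulin genes, summed TPM) was 0.077 to 0.082 in Control and 0.023, 0.10 and 0.078 in RC48 replicates 1, 2 and 3. The ratio was below the Control range in replicate 1, above it in replicate 2 and within it in replicate 3. It was not corrected for the GC trend. STMN1 has a GC content of 46.1%, and the 13 alpha and beta tubulins tested have a median of 57.0%. In RC48 replicate 1 the median log2 ratio to Control over all genes was -0.28 in the bin around 45.2% GC. In the bin around 57.3% GC it was 0.49. The tubulin sum itself was 6808, 4196 and 4691 TPM in these libraries and 6118 to 6223 TPM in Control.

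CKAP5, the other gene with separated groups, encodes the polymerase that adds tubulin at plus ends (chTOG) and lies at chr11:46743048-46846308 on the minus strand. It was at 244, 234 and 289 CPM in Control replicates 1, 2 and 3 and at 199.6, 229 and 217 CPM in RC48 replicates 1, 2 and 3. The gap was narrow, since the highest RC48 library and the lowest Control library, both replicate 2, lay about 5 CPM apart. With means of 255 ± 29.2 CPM in Control and 215 ± 14.8 CPM in RC48 (SD, n = 3), its log2 fold change was -0.25 (SE 0.13, 95% confidence interval -0.54 to 0.047, edgeR adjusted p = 0.297), with an exact permutation p of 0.1, again the smallest possible. Once the GC trend was removed the groups of CKAP5 overlapped, and the log2 fold change was -0.13 (SE 0.10, edgeR adjusted p = 0.416). The stretches next to the start sites of STMN1 and CKAP5 are shown because these are the genes whose RC48 libraries all lay below Control. They are the RefSeq promoter sequences (GRCh38.p14), shortened where they run into annotated exons, with 203 bases at chr1:25906467-25906669 and 103 bases at chr11:46846309-46846411, both read 5′ to 3′ on the minus strand. Capitals mark the CCAAT box and, in CKAP5, TTCAAA, the reverse complement of the cell cycle homology element TTTGAA.
STMN1: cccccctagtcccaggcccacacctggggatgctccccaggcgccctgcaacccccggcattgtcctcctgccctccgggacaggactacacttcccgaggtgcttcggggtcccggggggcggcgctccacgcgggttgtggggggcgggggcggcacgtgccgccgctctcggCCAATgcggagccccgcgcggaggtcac
CKAP5: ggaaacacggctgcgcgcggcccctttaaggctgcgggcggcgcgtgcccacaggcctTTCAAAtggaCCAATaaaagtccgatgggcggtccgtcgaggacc
Over the 250 bases before each start, on both strands, CCAAT was found in 7 of the 19 RefSeq promoters of the 10 genes and in 32.0% of all 35116 promoters, and TTTGAA in 8 of 19 and 13.3%. An E2F word (TTTGGCGC, TTTCGCGC, TTTCCCGC or TTTGCCGC) was found in 2.79% of all promoters and in 2 of the 19, both of STMN1 and outside the stretch printed here. These are matches of letters and say nothing on binding.

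MAP4 is the widespread lattice-binding protein of non-neuronal cells and lies at chr3:47850690-48089272 on the minus strand. It was at 109, 113 and 116 CPM in Control replicates 1, 2 and 3 and at 105, 115 and 116 CPM in RC48 replicates 1, 2 and 3. The 6 libraries were nearly level, and the groups overlapped. Its log2 fold change of -0.011 (SE 0.11, 95% confidence interval -0.26 to 0.24, edgeR adjusted p = 0.953) allows a change of 0.832-fold to 1.18-fold, a narrow interval beside that of STMN1, and with the GC trend removed it was -0.10 (SE 0.085, edgeR adjusted p = 0.489). MAP7, at chr6:136342281-136550819 on the minus strand, binds the lattice and recruits kinesin-1. It was at 84.8, 88.2 and 92.1 CPM in Control replicates 1, 2 and 3 and at 45.3, 87.6 and 65.9 CPM in RC48 replicates 1, 2 and 3. RC48 replicate 1 had about 51% of the Control mean and replicate 3 about 75%, while replicate 2 was inside the Control range, so the groups overlapped. MAP7 had a log2 fold change of -0.42 (SE 0.22, 95% confidence interval -0.93 to 0.10, edgeR adjusted p = 0.306) and an exact permutation p of 0.2. After removal of the GC trend, all 3 RC48 libraries of MAP7 lay below Control, at 48.5, 83.8 and 65.7 against 84.5 to 90.4 CPM, and the log2 fold change was -0.41 (SE 0.17, edgeR adjusted p = 0.167). MAP7 passed the threshold without RC48 replicate 2, at -0.67 (adjusted p = 0.0315), and with the correction as well, at -0.62 (adjusted p = 0.0199), where 28.3% and 15.6% of all genes passed.

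MAP1B, a lattice-binding protein best known from neurons, lies at chr5:72107234-72209570 on the plus strand. It was at 1.10, 1.27 and 0.765 CPM in Control replicates 1, 2 and 3 and at 1.58, 1.66 and 1.17 CPM in RC48 replicates 1, 2 and 3. These levels rest on 13 to 29 counts per library. The RC48 values were mostly higher, with overlap, and the log2 fold change was 0.48 (SE 0.28, 95% confidence interval -0.16 to 1.13, edgeR adjusted p = 0.325), or 0.54 (SE 0.28, edgeR adjusted p = 0.252) with the GC trend removed. Summed over the libraries there were 54 counts in Control and 76 in RC48, a ratio of 1.34 after scaling for depth (exact 95% interval 0.931 to 1.93, counting error only), so a difference of this size was not detectable at this depth.

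MAPRE1 encodes EB1, which tracks growing plus ends and brings other proteins there, and lies at chr20:32819893-32850405 on the plus strand. It was at 282, 286 and 288 CPM in Control replicates 1, 2 and 3 and at 183, 292 and 227 CPM in RC48 replicates 1, 2 and 3. The Control libraries agreed within a few CPM, whereas the RC48 libraries ranged from about 64% to 102% of the Control mean, with replicate 2 above all Control libraries. MAPRE1 averaged 286 ± 3.04 CPM in Control and 234 ± 55.1 CPM in RC48 (SD, n = 3), with a log2 fold change of -0.29 (SE 0.17, 95% confidence interval -0.69 to 0.11, edgeR adjusted p = 0.333). CLIP1 encodes CLIP-170, which binds EB1 at plus ends, and lies at chr12:122271432-122422632 on the minus strand. It was at 109, 112 and 128 CPM in Control replicates 1, 2 and 3 and at 68.2, 129 and 93.9 CPM in RC48 replicates 1, 2 and 3. The pattern was that of MAPRE1, with RC48 replicate 2 above, and replicates 1 and 3 below, every Control library. The log2 fold change of CLIP1 was -0.26 (SE 0.22, 95% confidence interval -0.78 to 0.25, edgeR adjusted p = 0.452). Without RC48 replicate 2, both genes passed the threshold, MAPRE1 at -0.48 (adjusted p = 0.0369) and CLIP1 at -0.52 (adjusted p = 0.0483), but with the GC trend removed as well neither did, at -0.24 (adjusted p = 0.0837) and -0.31 (adjusted p = 0.0780). With all 6 libraries and the GC trend removed, MAPRE1 had -0.16 (SE 0.087, edgeR adjusted p = 0.265), all RC48 libraries below Control, and CLIP1 had -0.16 (SE 0.13, edgeR adjusted p = 0.445), with overlap.

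CLASP1 and CLASP2 are paralogs that rescue shrinking microtubules, at chr2:121337776-121649587 on the minus strand and chr3:33496245-33718356 on the minus strand. CLASP1 was at 72.5, 68.9 and 84.4 CPM in Control replicates 1, 2 and 3 and at 69.1, 80.9 and 76.5 CPM in RC48 replicates 1, 2 and 3. Its groups overlapped throughout, with a log2 fold change of 0.0038 (SE 0.13, 95% confidence interval -0.30 to 0.31, edgeR adjusted p = 0.985) and, with the GC trend removed, of 0.021 (SE 0.089, edgeR adjusted p = 0.901). CLASP2 was at 59.7, 53.8 and 66.4 CPM in Control replicates 1, 2 and 3 and at 36.3, 60.4 and 52.7 CPM in RC48 replicates 1, 2 and 3. RC48 replicate 1 was lowest, about 61% of the Control mean, and the other 2 lay close to the Control range, with a log2 fold change of -0.27 (SE 0.20, 95% confidence interval -0.73 to 0.19, edgeR adjusted p = 0.406). The log2 ratio of CLASP2 to CLASP1 on the CPM scale was -0.93, -0.42 and -0.54 in RC48 replicates 1, 2 and 3, against -0.36 to -0.28 in Control. CLASP2 has the lowest GC content of the 10 genes, 41.8%, and CLASP1 has 47.2%. With the GC trend removed the ratio was -0.55, -0.53 and -0.45 in RC48 replicates 1, 2 and 3 and -0.48 to -0.40 in Control, and the corrected log2 fold change of CLASP2 was -0.036 (SE 0.089, edgeR adjusted p = 0.825).

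TTC5, the tubulin autoregulation factor, lies at chr14:20256558-20305994 on the minus strand. It was at 24.9, 23.5 and 27.9 CPM in Control replicates 1, 2 and 3 and at 30.4, 22.0 and 24.05 CPM in RC48 replicates 1, 2 and 3. RC48 replicate 1 was the highest of the 6 libraries and RC48 replicate 2 the lowest, and the log2 fold change was 0.0050 (SE 0.16, 95% confidence interval -0.37 to 0.38, edgeR adjusted p = 0.984). Its partners in this pathway, SCAPER and CNOT11, which link TTC5 to the enzymes that shorten mRNA tails, had log2 fold changes of -0.29 (SE 0.21, edgeR adjusted p = 0.393) and -0.31 (SE 0.16, edgeR adjusted p = 0.301), which were -0.11 and -0.31 with the GC trend removed. The groups of SCAPER overlapped. For CNOT11 all 3 RC48 libraries lay below Control, as in 14.1% of all genes, but narrowly, with RC48 replicate 2 at 74.6 and Control replicate 3 at 74.8 CPM. TTC5 reads the first amino acids of a new tubulin chain, and the codons for these differ between tubulins that it does and does not regulate. They are shown from the annotated start codon (GENCODE release 29, hg38), with the first 12 of 24 coding bases in capitals, for the most abundant beta and alpha tubulin mRNAs and, as the contrast, for gamma tubulin (TUBG1).
TUBB: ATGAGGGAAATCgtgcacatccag
TUBB4B: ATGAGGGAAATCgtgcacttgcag
TUBA1B: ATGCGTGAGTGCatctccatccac
TUBA1C: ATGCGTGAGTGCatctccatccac
TUBG1: ATGCCGAGGGAAatcatcacccta
TUBB and TUBB4B share the first 12 bases, as do TUBA1B and TUBA1C. The start codons lie at chr6:30720507-30720509, chr9:137241361-137241363, chr12:49131298-49131300, chr12:49265182-49265184 and chr17:42609738-42609740, all on the plus strand but TUBA1B.

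The tubulin mRNAs that TTC5 acts on were high in every library and differed between the RC48 libraries. TUBB was at 1835, 1818 and 1670.3 CPM in Control replicates 1, 2 and 3 and at 1689, 1128 and 1275 CPM in RC48 replicates 1, 2 and 3. TUBA1B was at 2183, 2232 and 2098 CPM in Control replicates 1, 2 and 3 and at 2808, 1392 and 1688 CPM in RC48 replicates 1, 2 and 3. In RC48 replicates 2 and 3 both were below every Control library, and in replicate 1 TUBA1B was above all and TUBB within the Control range. TUBA1C and TUBB4B followed TUBA1B, with RC48 replicate 1 highest, replicates 2 and 3 below Control, and log2 fold changes of 0.11 and -0.040. The log2 fold change of TUBB was -0.38 (SE 0.16, edgeR adjusted p = 0.258) and that of TUBA1B -0.15 (SE 0.24, edgeR adjusted p = 0.702). Of 13 alpha and beta tubulin genes tested, 0 were called by edgeR and 0 by DESeq2, 3 passed an unadjusted p of 0.05 (2 higher, 1 lower, where 11.9% of all genes passed higher and 7.21% lower), and their median log2 fold change was 0.32. With the GC trend removed the median was -0.026 and 1 was called, TUBB, at -0.55 (edgeR adjusted p = 0.0168), where 3.78% of all genes were called lower. The less abundant TUBA1A and TUBB3 were above Control in all 3 RC48 libraries, at 0.68 (SE 0.25, edgeR adjusted p = 0.225) and 0.93 (SE 0.34, edgeR adjusted p = 0.217), TUBB2A had 0.32 (SE 0.28, edgeR adjusted p = 0.469) and TUBA4A 0.10 (SE 0.27, edgeR adjusted p = 0.818). Such separation was seen in 2 of 13, against 17.4% of all genes. Without RC48 replicate 1, edgeR called TUBB lower, at -0.57 (adjusted p = 0.00338). It also called TUBA1B at -0.50 (adjusted p = 0.0108) and TUBB4B at -0.40 (adjusted p = 0.0481), where 2.21% of all genes were called lower. Without RC48 replicate 2, it called TUBA1A at 0.88 (adjusted p = 0.0261) and TUBB3 at 1.17 (adjusted p = 0.0260), where 14.1% were called higher. After removal of the trend, TUBA1A had 0.48, TUBB3 0.53, TUBB2A -0.032, TUBA4A -0.21, TUBA1B -0.38, TUBA1C -0.026 and TUBB4B -0.40. Of the 13 genes 10 had a fractional count in at least 1 library, which RSEM gives to genes that share reads, so how those reads were split is uncertain. TUBA1A, TUBA1B, TUBA1C, TUBA4A and TUBB2A had them in all 6 libraries, TUBB3 in 2, TUBB4B in 1 and TUBB in 0.

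The GC trend touched the 10 genes unevenly. In RC48 replicate 1 the median log2 ratio to Control over all genes was -0.99 in the 10% of genes with the lowest GC content and 0.64 in the 10% with the highest. Removing the trend brought the median of the 10 genes in that library from -0.50 to -0.18, and in replicates 2 and 3 to -0.025 and -0.092. Across all 6 libraries the median log2 fold change of the 10 genes became -0.11, beside -0.024 for all genes. STMN1 and MAP7 hardly moved, from -0.55 to -0.53 and from -0.42 to -0.41. CLASP2 moved from -0.27 to -0.036 and TTC5 from 0.0050 to 0.24, with RC48 replicate 1 of TTC5 at 39.6 corrected CPM against 19.9 and 25.1 in replicates 2 and 3. With the correction, edgeR called 0 of the 10 genes, against 8.20% of all genes. In the same fit 2 (STMN1 and MAP7, both lower) had an unadjusted p under 0.05, against 26.8% of all genes, and the RC48 libraries lay below Control in 3 (STMN1, MAP7 and MAPRE1), as in 20% of all genes. The 95% interval of the corrected log2 fold change ran from -1.02 to -0.032 for STMN1 and from -0.80 to -0.022 for MAP7.

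**Figure D3:**
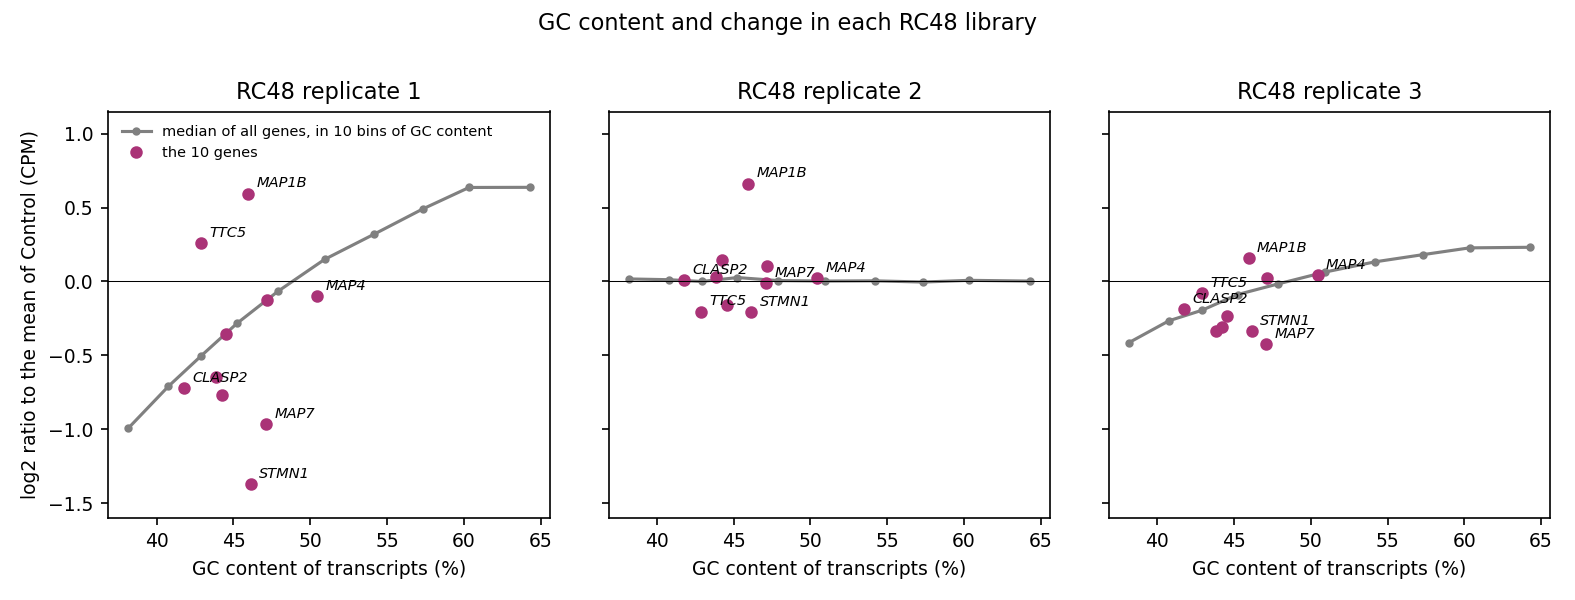
Log2 ratio to the Control mean (CPM) in each RC48 library against the GC content of the transcripts in percent, with the medians of all genes in 10 bins of GC content (grey line) and the 10 genes (purple; 6 named). In RC48 replicate 1 the grey line climbs from -0.99 to 0.64, and STMN1 and MAP7 lie well under it in that library and under it in replicate 3, while it is flat in replicate 2.

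**Figure D4:**
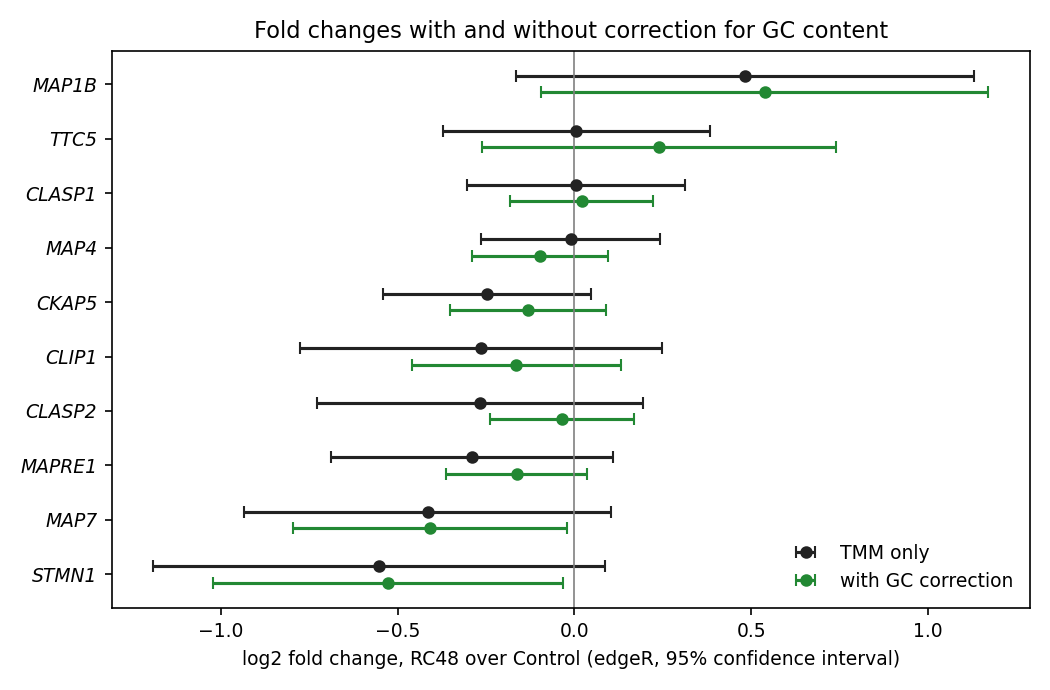
Log2 fold change of RC48 over Control for the 10 genes, with 95% confidence intervals from edgeR (n = 3 libraries per group), as normalized by TMM (black) and with the GC trend removed (green). All black intervals include 0, and of the green ones those of STMN1 and MAP7 do not.

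Depending on how the libraries were weighted, some of the genes passed. limma's voom test with weights for library quality called 5 of the 10 genes, all lower (STMN1, MAP7, MAPRE1, CLIP1 and CKAP5), but it called 61.4% of all genes (31.0% lower), and gave RC48 replicate 3 a weight of 7.64 against 0.0968 and 0.262 for replicates 1 and 2. limma on log2(TPM+1) of the 5 libraries with deposited TPM called 4 of the 9 genes above its filter, all lower (STMN1, MAP7, MAPRE1 and CLIP1), where 22.9% of all genes were called (16.5% lower). That set lacks RC48 replicate 2, and edgeR without that library called 3 (MAP7, MAPRE1 and CLIP1). MAP4, MAP1B, CLASP1, CLASP2 and TTC5 were called by none of the alternatives that gave a value for them, 23 for MAP1B and 26 for the others.

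The 10 genes are part of a larger set of regulators, of which a list of 80 others held 74 with an entry and 71 that were tested. Of these edgeR called 0, 8 were higher and 2 lower at an unadjusted p of 0.05, and DESeq2 called 0. Among all genes tested, the shares were 2.21% called, 11.9% higher and 7.21% lower at that p, and 5.70% called by DESeq2. The log2 fold changes of the 71 were split evenly, 35 positive and 36 negative, with a median of -0.0013, against -0.26 for the 10 genes. Without RC48 replicate 2, edgeR called 18 of the 71 (10 higher, 8 lower), where 28.3% of all genes were called.

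Paralogs of the 10 genes, named here after their values were seen, had values of either sign. MAPRE2 and MAPRE3, the relatives of MAPRE1, lay above Control in all RC48 libraries, as did 17.4% of all genes, at 0.27 (SE 0.14, edgeR adjusted p = 0.294) and 0.52 (SE 0.19, edgeR adjusted p = 0.213). Of the relatives of CLIP1, CLIP2 had 0.46 (SE 0.17, edgeR adjusted p = 0.215) and CLIP4 had -0.32 (SE 0.22, edgeR adjusted p = 0.391). CLIP3 had 0.40 (SE 0.26, edgeR adjusted p = 0.365) at 1.61 CPM in Control. STMN3, the only other stathmin with enough counts, had 0.54 (SE 0.24, edgeR adjusted p = 0.268) at 1.90 CPM in Control. Of the relatives of MAP7, MAP7D1 had 0.38 (SE 0.12, edgeR adjusted p = 0.174) and MAP7D3 had -0.24 (SE 0.19, edgeR adjusted p = 0.435). Of the relatives of MAP1B, MAP1S had 0.46 (SE 0.16, edgeR adjusted p = 0.197) and MAP1A -0.027 (SE 0.25, edgeR adjusted p = 0.949). MAP2 and MAPT, relatives of MAP4, had -0.022 (SE 0.23, edgeR adjusted p = 0.955) and 0.10 (SE 0.22, edgeR adjusted p = 0.768). CLIP2, STMN3, MAP7D1 and MAP1S also lay above Control in all RC48 libraries, while the groups of the others overlapped. The corrected log2 fold changes were 0.40 for MAPRE2, 0.31 for MAPRE3, 0.12 for CLIP2, -0.10 for CLIP4, 0.20 for STMN3, 0.066 for MAP7D1 and -0.16 for MAP7D3. They were 0.062 for CLIP3, 0.15 for MAP1S, -0.26 for MAP1A, 0.11 for MAP2 and -0.18 for MAPT. None of these paralogs passed the test with the GC trend removed either, and the differences between paralogs were not tested.

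Of the regulators that reached 10 CPM in either group's mean, the most negative were TBCA, a beta tubulin folding cofactor, at -0.57 (SE 0.37, edgeR adjusted p = 0.358), the plus-end kinesin KIF18A at -0.51 (SE 0.24, edgeR adjusted p = 0.281), the severing enzyme SPAST (spastin) at -0.48 (SE 0.42, edgeR adjusted p = 0.474) and CAMSAP2, a minus-end protein, at -0.48 (SE 0.31, edgeR adjusted p = 0.354). RC48 replicate 2 was within or above the Control range in all 4 of these. Their GC content was 37.0% to 39.6%, and with the GC trend removed their log2 fold changes were -0.23, -0.10, -0.24 and -0.16. Among the most positive were MAPRE3, CAMSAP3, another minus-end protein, at 0.49 (SE 0.18, edgeR adjusted p = 0.226) and TBCB, an alpha tubulin folding cofactor, at 0.47 (SE 0.19, edgeR adjusted p = 0.247). In each of these all 3 RC48 libraries lay above Control, as in 17.4% of all genes. Their GC content was 54.3% to 67.6%, and their corrected values were 0.31, 0.16 and 0.15. With the correction 1 of 71 was called, where 8.20% of all genes were: TTLL12, a relative of the tubulin ligases, at -0.45 (edgeR adjusted p = 0.00715). Uncorrected, TTLL12 had -0.11 (SE 0.16, edgeR adjusted p = 0.648) with overlapping groups, and 0.0073 (edgeR adjusted p = 0.973) without RC48 replicate 2. It was chosen after its value was seen.

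**Figure D5:**
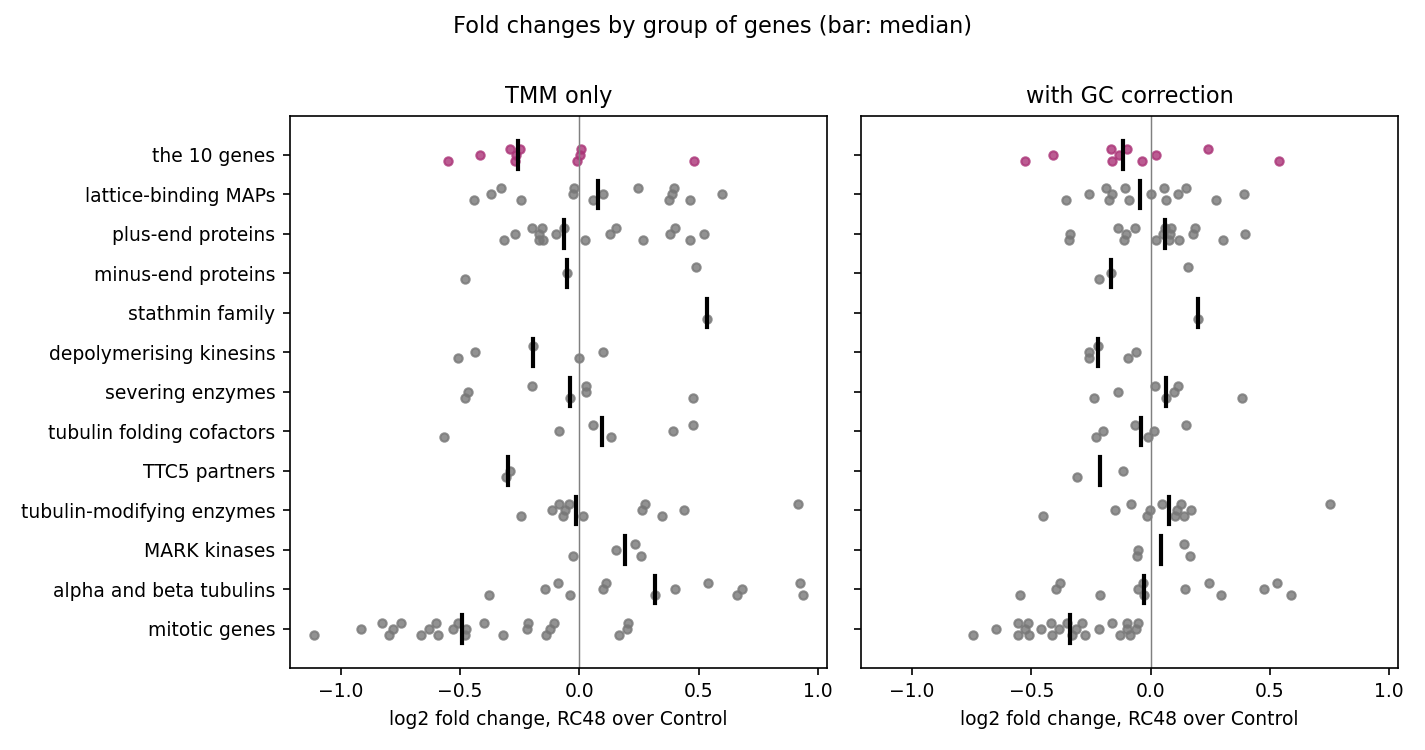
Log2 fold change of RC48 over Control for every tested gene of each group (points) and the group's median (bar), as normalized by TMM (left) and with the GC trend removed (right). The 10 genes have a median of -0.26 on the left and -0.11 on the right, and the mitotic genes have -0.49 and -0.34.

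Several of the 10 genes are used in mitosis, so mitotic genes were set beside them. Of 24 tested, edgeR called 0, 12 were lower at an unadjusted p of 0.05 (all genes 7.21%) and DESeq2 called 1, MKI67, lower (all genes 1.59%). In 18 the RC48 libraries were all below Control, as in 14.1% of all genes. Their median log2 fold change was -0.49, with CENPE, the kinetochore kinesin, most negative at -1.11 (SE 0.44, edgeR adjusted p = 0.238) and AURKB, a kinase of the chromosomal passenger complex, most positive at 0.20 (SE 0.19, edgeR adjusted p = 0.50). With the GC trend removed the median was -0.34, and 7 were called, all lower, where 3.78% of all genes were called lower. CENPE was then at -0.75 and AURKB at -0.061, below 0. Without RC48 replicate 2 and uncorrected, 16 were called lower and 0 higher, where 14.1% of all genes were called lower. Summed over the 24 genes, the level was 4826 to 5021 CPM in Control and 2904, 4188 and 3723 CPM in RC48 replicates 1, 2 and 3. The RC48 libraries stood in the same order for the 10 genes, which summed to 861, 1292 and 1126 CPM, against 1311 to 1381 CPM in Control. Neither sum is corrected for GC content, whose median was 43.9% for the mitotic genes and 45.2% for the 10 genes, against 49.3% for all genes. The GC trend was strongest in RC48 replicate 1, weaker in replicate 3 and not visible in replicate 2, which is the same order. Its part in the 2 sums was not tested.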

How the data were processed

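RNA of 3 Control and 3 RC48 libraries was sequenced by the authors, who filtered the reads with SOAPnuke. Per the submitters' processing notes Bowtie2, RSEM, limma and the build hg38 were used; versions and annotation are not given in the sources used here, nor is it stated whether counting used strand. The deposited estimated counts are RSEM's values per gene, made by the authors without normalization (whole for the 10 genes within 0.001 counts, but for 2 of 60 values, both STMN1). The deposited TPM values were made by the authors from the same reads, normalized for length and library size, and the TPM of RC48 replicate 2 was not among the files used here. It was computed from its counts and the lengths implied by the other libraries, for the 12365 genes that reached 20 counts and 1 TPM. The same step applied to RC48 replicate 3 differed from its deposited TPM by a median of 0.0364 on the log2 scale over 12338 genes, and by at most 0.0499 for the 10 genes.

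For the test, counts were rounded, low genes were removed with edgeR's filterByExpr, and TMM factors were computed. The test was edgeR's quasi-likelihood test (R 4.3.3, edgeR 4.0.16) with Benjamini-Hochberg adjustment over all genes tested at a threshold of 0.05. Although the study used limma on log2 TPM, counts were preferred because they exist for all 6 libraries, and limma 3.58.1 on log2(TPM+1), over genes of at least 1 TPM, and on log2(TPM+0.1) were alternatives. The others were DESeq2 1.42.0, voom with quality weights, RLE size factors or bare library sizes, either no filter or a minimum of 10 counts in each library, corrections for GC content, length or both, a replicate block with and without the GC correction, and each library left out in turn. Corrections subtracted a loess trend (span 0.3) of log2 CPM as an offset, with GC content from GENCODE release 29 transcripts for 16289 of 16390 genes (99.4%). A fold change on the log2(TPM+1) scale understates the change of genes with low TPM. Confidence intervals of fold changes come from edgeR, and those on counts are exact and cover counting error only. Permutation tests were exact and two-sided. Library totals lay between 16453233 and 17988030 counts. The procedure was tested on simulated counts with log2 fold changes of 1 and 2. That simulation held no GC trend and gave all libraries the same spread, so it does not show how well smaller changes are found in these libraries. Values were computed in Python 3.11.15 (numpy 2.4.6, pandas 2.3.3, scipy 1.17.1, matplotlib 3.10.9).

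The 10 genes and the gene lists were chosen with earlier results of these data known. Named are the 10 genes, the other regulators called, the 4 regulators with the highest and the 4 with the lowest log2 fold change at 10 CPM or more, the alpha and beta tubulins above that level, SCAPER and CNOT11, and the mitotic genes at the extremes, except that 1 regulator is not reported here. MAPRE2, CLIP2, CLIP3, CLIP4, STMN3, MAP7D1, MAP7D3, MAP1A, MAP1S, MAP2, MAPT, TTLL12, MKI67, KRT8, KRT18, KRT19, KRT20, EPCAM, FOXA1, ITGAM, PTPRC, TUBG1, TUBE1, MARK3 and MARK4 were added outside this rule. Positions are from GENCODE release 29 (hg38) and promoters from RefSeq (GRCh38.p14), where all 10 genes matched.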

Additional observations from a re-analysis of the deposited data

How the results depend on the processing

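The 10 genes were tested under 26 alternatives, of which 6 (the GC correction with each library left out in turn) were chosen after seeing the data. Of their log2 fold changes, 209 of the values under an alternative kept direction and side of the threshold, 14 kept direction and passed it, 34 changed sign, and 0 of these 34 passed. The 14 were STMN1 at -1.03 with limma on log2(TPM+1) of 5 libraries, -0.39 with voom and -0.28 with the GC correction without RC48 replicate 1, MAP7 at -0.78 and -0.39 in the same limma and voom fits, -0.62 with the GC correction without RC48 replicate 2 and once among -0.67 to -0.21 with a library left out, MAPRE1 at -0.62, -0.32 and once among -0.48 to -0.15, CLIP1 at -0.63, -0.24 and once among -0.52 to -0.073, and CKAP5 at -0.16 with voom. In the fits without the correction, the left-out library was RC48 replicate 2 for all 3 genes. The number of the 10 genes called was 0 except for 5 with voom, 4 with limma on log2(TPM+1) of 5 libraries (4 of 9 genes), 1 with the GC correction without RC48 replicate 1 (STMN1), 1 with it without RC48 replicate 2 (MAP7), and 0 to 3 with a library left out and no correction, the 3 without RC48 replicate 2. The median log2 fold change of the 10 genes was -0.52 with limma on 5 libraries and otherwise between -0.36 and -0.063. The number of neighbouring genes in the RC48 order of TPM whose libraries overlapped was 6 with all libraries and 3 with the 5 libraries that have deposited TPM.

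Of the 71 other regulators (67 in limma on 5 libraries), 11 were called with limma on 5 libraries, 42 with voom, 1 with the GC correction, 2 with GC and length correction, 1 with the replicate block and GC correction, 0 to 18 with a library left out, and, with the GC correction, 1 without Control replicate 3, 4 without RC48 replicate 1, 3 without RC48 replicate 2 and 1 without RC48 replicate 3. Over all genes the 288 calls became 744 with DESeq2, 2836 with limma on 5 libraries, 8018 with voom, 1070 with the GC correction (577 higher, 493 lower), 1405 with GC and length correction, 886 with the replicate block and GC correction, 68 to 3726 with a library left out, and, with the GC correction, 482 without Control replicate 3, 1786 without RC48 replicate 1 and 2053 without RC48 replicate 2. The cause of these shifts was not tested.

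Sign changes were found in MAP4, CLASP1 and TTC5, with log2 fold changes of -0.011, 0.0038 and 0.0050, and in CLASP2, at -0.27 and, with the GC correction, -0.036. MAP4 had 0.060 with voom, 0.11 with the length correction and -0.061 to 0.025 with a library left out. CLASP1 had -0.0076 with DESeq2, -0.055, -0.14 and -0.057 with limma on log2(TPM+1) of 6 and of 5 libraries and on log2(TPM+0.1), -0.0077 with RLE size factors, -0.055 with library sizes alone, -0.0093 unfiltered, -0.0073 under the minimum of 10 counts, -0.058 to 0.092 with a library left out, and -0.0079 and -0.039 with the GC correction without Control replicates 1 and 2. TTC5 had, in the order of the first 8 of these, -0.0070, -0.068, -0.020, -0.074, -0.0069, -0.065, -0.0097 and -0.0078, -0.031 with voom, -0.15 to 0.10 with a library left out and -0.076 with the GC correction without RC48 replicate 1. CLASP2 had 0.023 and 0.00015 with that correction without Control replicate 3 and without RC48 replicate 1.

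Replicate numbers are shared between the groups, but the labels do not say what they mark, and same-numbered libraries did not deviate together (Pearson's r of the deviations across 9996 genes 0.112, -0.270 and -0.067 for numbers 1, 2 and 3), so they were not treated as pairs. With the replicate block, 331 genes were called in all and 0 of the 10, and TTC5 was at -0.0043. Of all libraries only Control replicate 1 correlated best with its own number, at 0.112 against 0.111 with RC48 replicate 3.

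Depth limits MAP1B, with 13 to 29 counts per library. The other 9 genes had at least 386 counts in every library. With 3 libraries per group an exact permutation test cannot go below 0.1.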

Other observations

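The 4 gamma, delta and epsilon tubulin genes, which sit at centrosomes and basal bodies and are not part of the polymer wall, gave no calls either by edgeR or by DESeq2 (0 of 4 at an unadjusted p of 0.05). Among all genes the shares were 2.21%, 5.70% and, at that p, 19.1%. TUBG1, the main gamma tubulin of microtubule-organizing centres, had a log2 fold change of 0.24 (SE 0.27, edgeR adjusted p = 0.569) and TUBE1 -0.46 (SE 0.24, edgeR adjusted p = 0.305). TUBG1 had fractional counts in all 6 libraries and, with the GC trend removed, a log2 fold change of -0.089. Without RC48 replicate 2, TUBE1 was lower, at -0.71 (edgeR adjusted p = 0.0409), the only 1 of the 4 called in a fit that called 28.3% of all genes. TUBE1 has a GC content of 38.8%, and with the GC trend removed from all 6 libraries its log2 fold change was -0.12 (edgeR adjusted p = 0.480).

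The 4 MARK kinases, which phosphorylate lattice-binding proteins such as MAP4 and release them from microtubules, had log2 fold changes of -0.025 to 0.26, with 0 of 4 called by edgeR or by DESeq2 and 0 of 4 at an unadjusted p of 0.05 in edgeR. Among all genes these shares were 2.21% for edgeR, 5.70% for DESeq2 and 19.1% at the unadjusted p. MARK3 and MARK4 lay above Control in all 3 RC48 libraries, as did 17.4% of all genes, at 0.15 (SE 0.10, edgeR adjusted p = 0.380) and 0.26 (SE 0.11, edgeR adjusted p = 0.263). With the GC trend removed MARK3 had 0.17 and MARK4 -0.052, so the value of MARK4 changed sign under that correction.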
